A study of Homo sapiens with 2 samples.

Results

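Autophagy, the route by which a cell encloses its own cytoplasm in a membrane and delivers it to the lysosome, depends on a set of proteins whose transcripts were followed here in H322c cells, an established NSCLC line. The set held 44 genes, listed by name for autophagy initiation, conjugation and cargo reception. A probe set, a group of short oligonucleotides that reads 1 transcript on the array, was taken where the platform annotation gave it a single gene from this list. This found 118 of the 41097 probe sets with a single gene, covering all 44 of 19775 genes. One culture had received 1 µM gefitinib, an inhibitor of the EGFR tyrosine kinase, and the control culture 0.1% DMSO, the vehicle. Both cultures were plated 24 hrs earlier, grown in RPMI medium with fetal bovine serum, and harvested for RNA after 4 days. RNA of each was hybridized to 1 Affymetrix human U133 plus 2.0 array. With no replicate, no test was possible. Every difference below describes these 2 arrays, and the spread between cultures is unknown.

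The autophagosome is built in steps. The ULK kinase complex starts the process, and the Beclin 1 complex then makes the lipid PI3P at the site of formation, where PI3P-binding proteins and lipid-transfer proteins gather. A pair of ubiquitin-like reactions follows: ATG12 is joined to ATG5 and binds ATG16L1, and this complex helps attach proteins of the ATG8 family (LC3 and GABARAP) to the growing membrane. Cargo receptors hold ubiquitin-tagged cargo with one end and ATG8 proteins with the other, and the closed vesicle at last fuses with the lysosome. Much of this machinery is regulated on the protein, by phosphorylation, lipid attachment and turnover, and an array sees only the transcripts.

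The deposited values were signal intensities from MAS5, the Affymetrix summary program, on a linear scale with each array set to the same trimmed mean. A signal under 100 was treated as 100, and a gene counted as measured where 1 of its probe sets came to 100 or more in either culture. When several probe sets of a gene were measured, the brightest, by mean log2 signal, stood for the gene. The keratins and junction proteins that mark epithelial cells (EPCAM, CDH1, KRT8, KRT18 and KRT19) were all measured, with a summed signal of 130719.3 with DMSO and 107682.6 with gefitinib. The lower sum came from KRT8 (log2 ratio -0.72) and KRT18 (-0.77), while EPCAM (0.17), CDH1 (0.14) and KRT19 (0.07) were slightly above 0. None of 5 leukocyte markers reached the floor on either array. Of 6 fibroblast markers 1 was measured, COL1A1 at 420.8 and 950.2, and of 4 endothelial markers 2 were, with a summed signal of 158.4 with DMSO and 574.0 with gefitinib. VWF was below the floor with DMSO and at 496.0 with gefitinib, and PECAM1 had 128.4 and 78.0. The part of these signals in the values below was not tested.

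All 44 autophagy genes were measured, at 88 of their 118 probe sets. ATG16L2 and OPTN were at least 2-fold higher with gefitinib, ATG12 and ATG16L1 were at least 2-fold lower, and the other 40 had values within 2-fold, VMP1 only as a bound. The 2 higher genes made up 4.55% of the set, against 13.3% of all 11223 measured genes that were at least 2-fold higher. The 2 lower genes were also 4.55% of it, against 6.20% of all measured genes that were at least 2-fold lower. The median log2 ratio of gefitinib over DMSO was 0.07 for the autophagy genes and 0.12 for all measured genes. The middle 50% of the autophagy genes lay between -0.22 and 0.45, and that of all genes between -0.33 and 0.62. Counted by probe set, 9 of the 88 (10.2%) were at least 2-fold higher, against 12.1% of all measured probe sets, and 3 (3.41%) were at least 2-fold lower, against 7.26%.

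**Figure D1:**
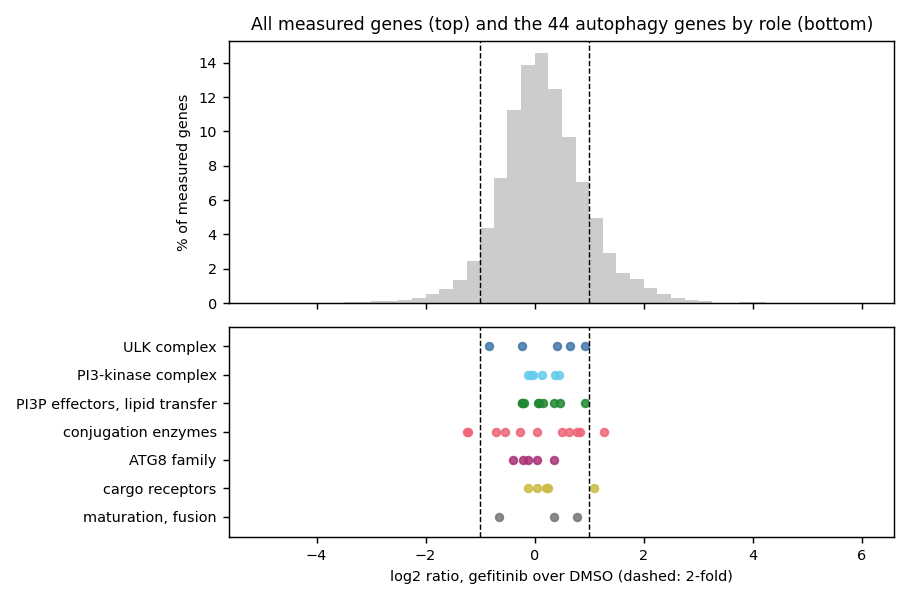
Gefitinib over DMSO signal as a log2 ratio (horizontal axis, dashed lines at 2-fold) for all 11223 measured genes as a histogram in percent of genes (top) and for the 44 autophagy genes as points sorted by role (bottom), 1 array per condition. The points of 40 genes lie between the dashed lines. Of the 4 outside them 3 (ATG12, ATG16L1 and ATG16L2, which are not enzymes) lie in the row labelled conjugation enzymes.

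How the arrays were scaled changed this split, and the shares over all measured genes with it. After centring on control probe sets 4 autophagy genes were higher (9.09%, against 17.0% of all measured genes) and 2 lower (4.55%, against 4.71%). With scaling to GAPDH 7 were higher (15.9%, against 19.2%) and 1 was lower (2.27%, against 3.91%). Scaling to the bacterial spike-ins left 1 higher (2.27%, against 9.0%) and 3 lower (6.82%, against 9.65%), and quantile normalization left 1 higher (2.27%, against 10.7%) and 2 lower (4.55%, against 7.26%). The median of all measured genes moved with these scalings too, to 0.25 with control probe sets, 0.33 with GAPDH and -0.09 with spike-ins. ATG13 and WIPI1 joined the higher genes with control probe sets and with GAPDH, and ATG4B, ATG5 and TECPR1 with GAPDH only. ATG101 joined the lower genes with spike-ins. Through all these scalings ATG16L2 stayed more than 2-fold higher and ATG16L1 more than 2-fold lower with gefitinib.

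Probe sets of 1 gene did not always give the same ratio. Their disagreement, which holds no variation between cultures and is no replicate error, had an SD of 0.50 in log2 over the 26 autophagy genes with more than 1 measured probe set, and 0.58 over 5432 genes of the whole array. Measured probe sets all pointed in 1 direction for 20 of these 26 genes (76.9%), against 60.3% of all genes with several. The other 18 autophagy genes rest on a single measured probe set.

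**Figure D2:**
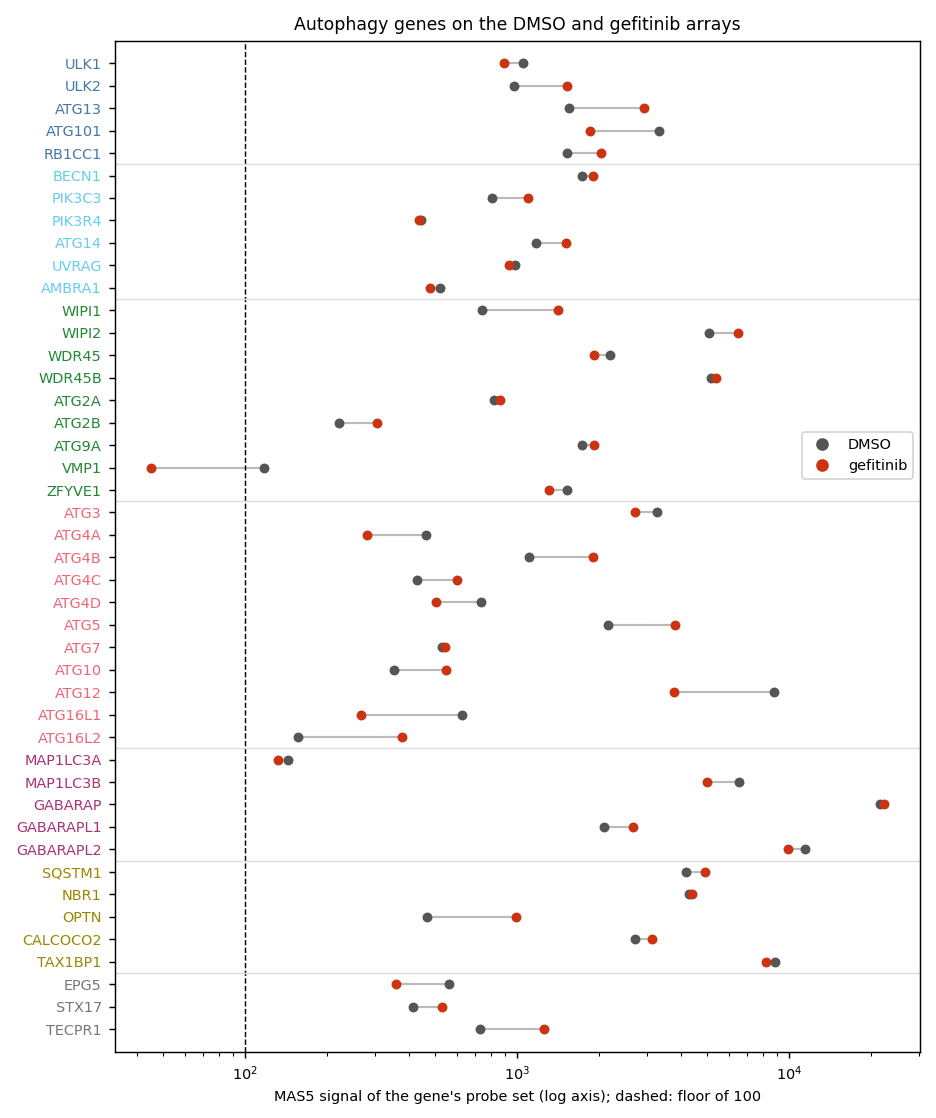
MAS5 signal (horizontal log axis) of the probe set that stands for each of the 44 autophagy genes with DMSO in grey and with gefitinib in red, from a single array each. Genes are grouped by role, from the ULK complex at the top to fusion proteins at the bottom, the dashed line is the floor of 100, and the VMP1 point at 45.2 lies below it.

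The proteins that start autophagy were spread to both sides of 0 within 2-fold. ULK1, the kinase that launches the process, measured 1054.4 in vehicle-treated cells and 896.9 with gefitinib (log2 ratio -0.23). Its relative ULK2 had 971.9 and 1525.7 (0.65), with its other 3 measured probe sets between 0.01 and 0.53. ATG13, the adaptor that links ULK1 to its partners, had 1548.5 and 2933.4, 1.89-fold higher at the probe set that stands for it. That value was not shared by the other 2 probe sets of ATG13, whose log2 ratios were -0.06 and -0.03, and the mean over the 3 was 0.28. ATG101, which holds ATG13 in its folded form, had 3307.2 and 1850.5, 1.79-fold lower (log2 ratio -0.84) at its single probe set. RB1CC1, the scaffold of the complex also known as FIP200, had 1520.2 and 2028.6 (0.42). Its second probe set was 2.42-fold higher at 556.7 and 1346.5. That probe set is of a class (_x_at) whose oligonucleotides can also match other transcripts. Thus 2 binding partners in the same complex, ATG13 and ATG101, differed in opposite directions at the probe sets that stand for them. Neither passed 2-fold on the deposited scale. ATG13 did with control probe sets (1.06) or GAPDH (1.15), and ATG101 with spike-ins (-1.05).

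The Beclin 1 complex, which makes PI3P, had no gene past 2-fold. Its 6 genes had log2 ratios from -0.13 to 0.45 with a median of 0.06. BECN1 had 1724.5 with DMSO and 1899.3 with gefitinib, and its second probe set gave 0.20. PIK3C3, the lipid kinase itself, had 805.6 and 1097.2 (0.45). Its other 3 measured probe sets were below the floor with DMSO and above it with gefitinib, so that they are bounds, at least 1.88-fold, 1.84-fold and 1.11-fold higher. The regulatory subunit PIK3R4 had 443.6 and 435.9. ATG14, which directs the complex to autophagosome formation, had 1174.9 and 1517.2 (0.37), and UVRAG, which replaces ATG14 in a second form of the complex, had 977.6 and 931.5 (-0.07). AMBRA1, an activator of BECN1, had 521.1 and 477.3.

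Among the genes that read PI3P or supply lipid and membrane, WIPI1 had the highest ratio at the probe sets that stand for the genes. WIPI1, a PI3P-binding propeller protein, had 743.1 with DMSO and 1411.9 with gefitinib, 1.90-fold higher. The second probe set of WIPI1 gave nearly the same ratio, with 527.7 and 1008.9, 1.91-fold higher. The gene was therefore just under 2-fold at both, and past it with GAPDH scaling (log2 ratio 1.15) or centring on control probe sets (1.07). WIPI2, the family member that recruits ATG16L1, had 5056.8 and 6496.4 (0.36), and its second probe set gave 0.64. At another, much dimmer WIPI2 probe set the signal was 201.9 and 890.9, 4.41-fold higher. WDR45 and WDR45B, the other propeller proteins of this family, had log2 ratios of -0.19 and 0.05.

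ATG2A and ATG2B, the lipid-transfer proteins, had log2 ratios of 0.08 and 0.47, and ATG9A, a membrane protein that moves lipid between leaflets, had 0.15. ZFYVE1, a marker of the ER sites where autophagosomes form, had 1529.9 and 1303.5 (-0.23) and gave -0.74 at its second probe set. VMP1 is an ER membrane protein needed for autophagosome formation. At the probe sets that stand for the genes, only VMP1 fell under the floor on an array. Its measured probe set had 117.5 in the vehicle culture and 45.2 after gefitinib, at least 1.18-fold lower, a bound that does not show whether VMP1 passed 2-fold. With a floor of 50 its log2 ratio was -1.23. Brighter probe sets annotated to both VMP1 and the microRNA gene MIR21 were assigned to neither gene. One had 4415.7 with DMSO and 3162.5 with gefitinib, 1.40-fold lower, and another 2233.4 and 560.3, 3.99-fold lower.

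The conjugation group held 3 of the 4 genes past 2-fold. These 3 are the ubiquitin-like protein ATG12 and the proteins ATG16L1 and ATG16L2, not enzymes. The group, the largest with 11 genes, also had the widest range of any role group, from -1.24 to 1.27 with a median of 0.04. ATG12, the ubiquitin-like protein that is joined to ATG5, measured 8769.0 on the DMSO array against 3766.5 after gefitinib, 2.33-fold lower. Each of its other 2 probe sets was also lower. One gave 4304.6 and 820.0, 5.25-fold lower, and the dimmest 525.9 and 330.0, 1.59-fold lower. The mean log2 ratio over the 3 ATG12 probe sets was -1.43. With scaling to GAPDH the probe set that stands for ATG12 came to -0.996 on the log2 scale, just inside 2-fold.

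ATG16L1, the protein that brings the ATG12 and ATG5 conjugate to the membrane, had 628.9 in the vehicle culture against 266.2 after gefitinib, 2.36-fold lower (-1.24 in log2). This rests on a single measured probe set, and the value ran from -1.46 to -1.02 over the scalings. Its relative ATG16L2 went the other way, with 156.4 and 378.0, 2.42-fold higher (log2 ratio 1.27, and no less than 1.06 over the scalings). ATG16L2, whose part in autophagy is less settled, likewise rests on a single measured probe set, and its DMSO signal lay near the floor. With a floor of 200 its log2 ratio was 0.92, which is then a bound. ATG5 itself, the acceptor of ATG12, had 2154.1 and 3814.1, 1.77-fold higher, with 0.41 and 0.75 at its other 2 probe sets. Of the 3 proteins that assemble into 1 complex, ATG12 and ATG16L1 were therefore lower at every measured probe set and ATG5 higher at every measured probe set.

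The enzymes that act on ATG12 and on the ATG8 proteins were within 2-fold on the deposited scale, at the probe sets that stand for them. ATG7, the E1-like enzyme of both reactions, had 529.5 and 542.9 (0.04). ATG10, the E2-like enzyme for ATG12, had 353.6 and 545.7 (0.63), and 2.31-fold higher at a second probe set with 130.4 and 301.2. ATG3, the E2-like enzyme for ATG8 proteins, had 3266.5 and 2712.1 (-0.27). The 4 ATG4 proteases, which trim ATG8 proteins and release them from lipid, were split. ATG4B had 1102.5 and 1897.3 (0.78), with 0.31 and 0.98 at its other probe sets. The probe set that stands for ATG4B is of the _x_at class, and without that class the log2 ratio of ATG4B was 0.98. With scaling to GAPDH it came to 1.01, just past 2-fold. ATG4C had 427.1 and 601.1 (0.49). ATG4A had 462.5 and 281.2 (-0.72) and ATG4D 734.7 and 505.1 (-0.54).

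None of the ATG8 genes reached 2-fold at any measured probe set. GABARAP had 21433.2 with DMSO and 22216.1 with gefitinib, a log2 ratio of 0.05. GABARAPL2 had 11454.4 and 9863.1 (-0.22) and GABARAPL1 had 2083.2 and 2657.9 (0.35), with 0.49 at its second probe set. MAP1LC3B, the LC3 protein most used as a marker of autophagosomes, had 6541.4 and 4967.3 (-0.40), and 6923.3 and 3795.2, 1.82-fold lower, at its other probe set. MAP1LC3A was near the floor, and its probe sets gave -0.12 and 0.39. Both MAP1LC3A probe sets are of a class (_x_at) whose oligonucleotides can also match other transcripts. A further probe set shared by GABARAPL1 and the near-identical GABARAPL3 was not assigned to either.

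OPTN was the cargo receptor that differed most. Optineurin, the product of OPTN, binds ubiquitin and ATG8 proteins and takes part in removing damaged mitochondria and bacteria. It had 464.9 with DMSO and 985.6 with gefitinib, 2.12-fold higher, at the probe set that stands for the gene. The dimmer probe set of OPTN had 73.0 and 666.0, at least 6.66-fold higher. Both OPTN probe sets were thus higher with gefitinib, by different amounts, and their mean log2 ratio was 1.91. The brighter one fell to between 0.87 and 0.93 with scaling to spike-ins, lowess correction or quantile normalization.

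The other receptors were within 2-fold at the probe sets that stand for them. SQSTM1, also known as p62, had 4160.7 and 4917.0 (0.24), while its dimmer probe sets gave -0.49, -0.73 and 0.04. NBR1 had 4282.5 and 4385.7 (0.03), with -0.42 at its dimmer measured probe set. TAX1BP1 had 8870.6 and 8178.9 (-0.12), with -0.06 at its next probe set and 0.64 at the dimmest. CALCOCO2, or NDP52, a receptor for bacteria and mitochondria, had 2700.5 and 3133.9 (0.21), and 213.3 and 544.5, 2.55-fold higher, at a dimmer probe set.

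Of the 3 genes for maturation and fusion, none passed 2-fold at the probe set that stands for it. EPG5, a tether that brings autophagosomes to lysosomes, had 559.8 and 357.7 (-0.65), and its second probe set gave -0.52. TECPR1, a protein of the lysosomal membrane that also binds ATG5, had 729.2 and 1252.9 (0.78), with 0.53 and 0.12 at its other probe sets. STX17, the SNARE protein of the closed autophagosome, had 412.9 and 528.4 (0.36) at the first of 5 measured probe sets. All 5 STX17 probe sets were above 0, from 0.18 to 1.38, and 2 of them were at least 2-fold higher, with 249.9 and 600.0 at one and 113.1 and 295.1 at the other.

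RB1CC1, WIPI2, ATG10, CALCOCO2 and STX17 thus had a probe set past 2-fold that did not stand for the gene, and in all 5 it was higher with gefitinib. That of RB1CC1 is of the _x_at class. No gene counted as within 2-fold had a probe set at least 2-fold lower. Counting a gene by any of its measured probe sets, 7 autophagy genes (15.9%) were at least 2-fold higher, against 17.2% of all measured genes, and 2 (4.55%) were at least 2-fold lower, against 10.2%. Which exons or transcript ends these probe sets read was not analysed here.

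**Figure D3:**
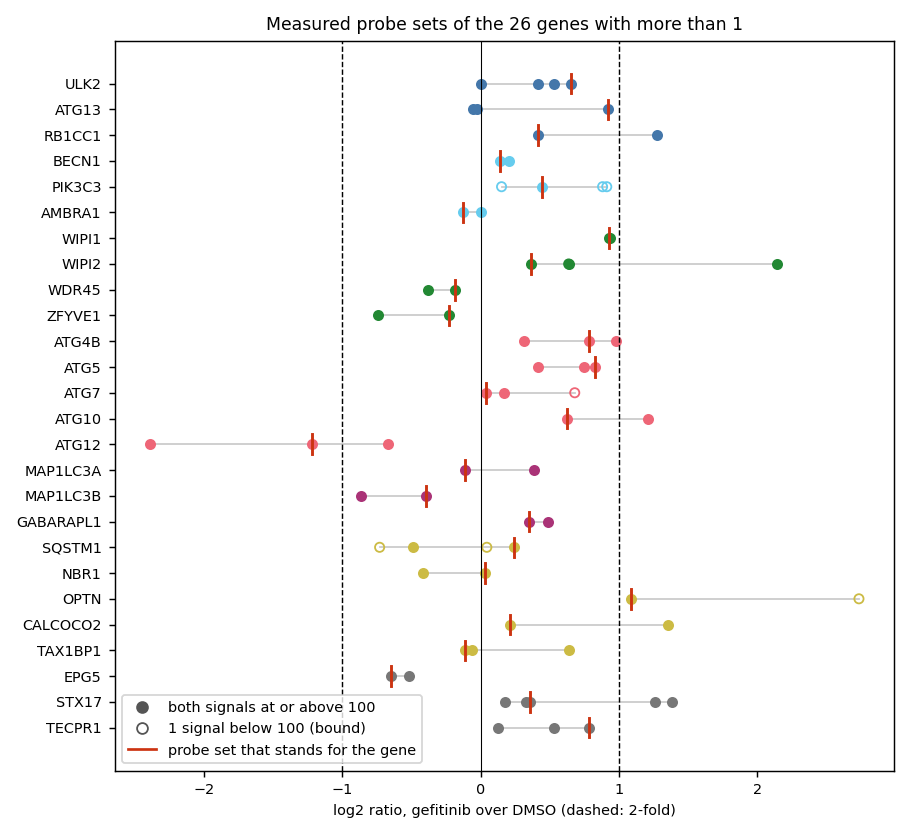
Gefitinib over DMSO signal as a log2 ratio (horizontal axis, dashed lines at 2-fold) for each measured probe set of the 26 autophagy genes that have more than 1. Open points are bounds with a signal under 100 and red bars mark the probe set that stands for the gene; the 3 ATG12 probe sets run from -2.39 to -0.67, and OPTN reaches 2.74.

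**Figure D4:**
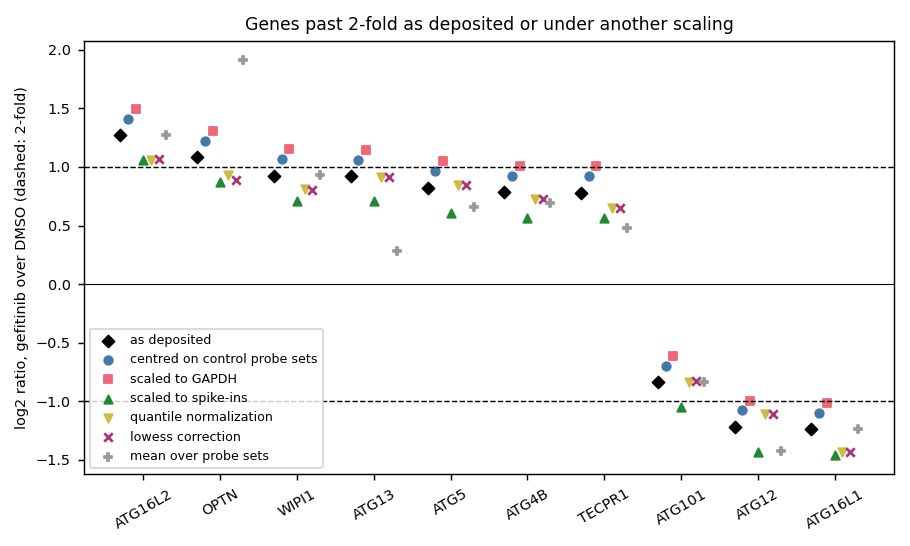
Gefitinib over DMSO signal as a log2 ratio (vertical axis, dashed lines at 2-fold) of the 10 autophagy genes past 2-fold as deposited or under another scaling, with a symbol for each of the deposited scale, 5 other scalings and the mean over probe sets. ATG16L2 lies above the upper line and ATG16L1 below the lower line at every plotted symbol, and OPTN runs from 0.87 with spike-ins to 1.91 for the mean over probe sets; other floors are not plotted, and with a floor of 200 ATG16L2 was at 0.92.

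Other genes around autophagy were described from 6 lists of 69 genes chosen for their role, with earlier results of these data known. Of these 68 were measured, 10 were at least 2-fold higher (14.7%, near the 13.3% of all measured genes) and 0 were at least 2-fold lower, where 6.20% of all measured genes were. The count of lower genes stayed at 0 under each rescaling and normalization tried, and was 1 with the mean over probe sets. It rests on the brightest probe set of each gene. Counted by any measured probe set, 14 genes (20.6%) were at least 2-fold higher, against 17.2% of all measured genes, and 2 (2.94%) at least 2-fold lower, against 10.2%. These 2 were YKT6, a SNARE protein, with a second probe set at -2.19, and BCL2L13, a mitophagy receptor, with one at -1.12. The median log2 ratio of the 68 measured genes was 0.19.

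Of 16 upstream kinases and regulators, 2 were at least 2-fold higher (12.5%, against 13.3% of all measured genes). PRKAA2, a catalytic subunit of the energy sensor AMPK, had 200.9 with DMSO and 494.7 with gefitinib, 2.46-fold higher, though its 5 measured probe sets ran from -0.45 to 2.04. TSC2, an inhibitor of the growth kinase complex mTORC1, had 508.4 and 1251.2, 2.46-fold higher at its single measured probe set. Of the 8 transcription factors, 1 was higher (12.5%). This was FOXO4, at least 2.13-fold higher with 80.4 and 212.9 at its single measured probe set. FOXO3, much brighter, had 5044.3 and 4869.2 (-0.05), with its probe sets up to 0.39. FOXO1 had 222.0 and 168.1 (-0.40), and its other probe set gave 0.82. TFEB and TFE3, which drive lysosomal and autophagy genes, had log2 ratios of 0.33 and -0.38. TFEB lay near the floor at 105.8 and 132.8, with its other measured probe set at 0.003. The TFE3 probe sets ran from -0.38 to 0.11. MITF, of the same list, had 157.2 and 246.4 (0.65). BCL2, which binds and restrains Beclin 1, was at least 3.22-fold higher, with 88.6 and 321.6 at its single measured probe set. It was the 1 higher gene of 7 Beclin 1 partners and inhibitors (14.3%).

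RETREG1 and CALCOCO1, both receptors for fragments of the ER, were the 2 higher of 16 measured receptors (12.5%, against 13.3% of all measured genes). RETREG1 had 35.5 in the vehicle culture and 553.6 after gefitinib, at least 5.54-fold higher, and CALCOCO1 had 349.8 and 1098.3, 3.14-fold higher. Among 13 genes of tethering, fusion and the lysosomal membrane, 2 were higher (15.4%). PLEKHM1, an adaptor between RAB7 and the fusion machinery, was 3.34-fold higher and VPS39, a subunit of the HOPS tether, 2.22-fold higher. A second PLEKHM1 probe set near the floor gave -0.03. CALCOCO1 and VPS39 each rest on a single measured probe set. Of 8 stress-induced genes, 2 were at least 2-fold higher and the other 6 were within 2-fold. SESN3, a sestrin that restrains mTORC1, had 383.2 and 2589.9, 6.76-fold higher, with its 3 probe sets from 0.20 to 2.76. TP53INP1, which binds LC3, had 667.2 and 2440.2, 3.66-fold higher. Among the other 6, the sestrins SESN1 and SESN2 had log2 ratios of 0.19 and -0.22. DRAM1 and TRIB3 had 0.83 and 0.43, and DDIT4 and TP53INP2 had -0.52 and -0.18.

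**Figure D5:**
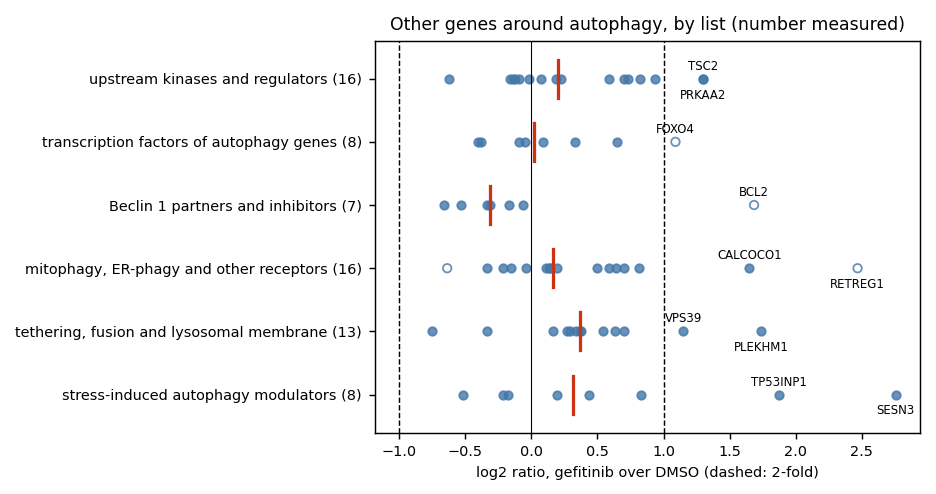
Gefitinib over DMSO signal as a log2 ratio (horizontal axis, dashed lines at 2-fold) of the 68 measured genes in 6 lists around autophagy, 1 array per condition, with each list's median as a red bar. Open points are bounds; the 10 named genes lie past 2-fold on the right, and none of the probe sets that stand for the genes lies past it on the left.

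The promoters of the autophagy genes were searched for 2 short motifs, since TFEB and TFE3 bind CACGTG within a longer element and FOXO factors bind GTAAACA. The RefSeq promoter table (GRCh38.p14), which gives 250 bases before to 50 after each start site, had 47 promoters for 37 of the 44 genes. CACGTG, which reads the same on both strands, was in 2 of the 47 (4.26%), those of ATG3 and ATG14, and in 7.26% of all 35116 promoters. GTAAACA, on either strand, was in 2 of the 47 (4.26%), those of CALCOCO2 and WDR45, and in 3.42% of all. None of the 4 genes past 2-fold had either motif in this window. A match is a description of the letters only.

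The 120 bases around the start sites of ATG3 and ATG14, the 2 genes with CACGTG, and of the 4 genes past 2-fold are given below from 100 bases before the start, with CACGTG in capitals. They lie at chr3:112561943-112562062 on the minus strand for ATG3, chr14:55411811-55411930 on the minus strand for ATG14, chr5:115841546-115841665 on the minus strand for ATG12, chr2:233251573-233251692 on the plus strand for ATG16L1, chr11:72814311-72814430 on the plus strand for ATG16L2 and, for the first of 2 listed OPTN starts, chr10:13099982-13100101 on the plus strand. ATG3 carries the motif on both sides of its start site.
ATG3: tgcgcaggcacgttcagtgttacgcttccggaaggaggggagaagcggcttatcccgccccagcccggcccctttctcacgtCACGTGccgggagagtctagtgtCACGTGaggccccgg
ATG14: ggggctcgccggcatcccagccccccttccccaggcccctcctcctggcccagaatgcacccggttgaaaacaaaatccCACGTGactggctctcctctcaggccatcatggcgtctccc
ATG12: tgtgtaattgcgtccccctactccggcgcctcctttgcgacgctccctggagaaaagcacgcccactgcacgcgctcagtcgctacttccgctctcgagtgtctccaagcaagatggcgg
ATG16L1: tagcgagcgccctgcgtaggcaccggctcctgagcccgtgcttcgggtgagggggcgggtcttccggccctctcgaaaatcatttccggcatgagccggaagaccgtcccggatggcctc
ATG16L2: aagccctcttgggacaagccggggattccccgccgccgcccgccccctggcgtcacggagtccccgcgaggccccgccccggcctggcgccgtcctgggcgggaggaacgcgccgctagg
OPTN: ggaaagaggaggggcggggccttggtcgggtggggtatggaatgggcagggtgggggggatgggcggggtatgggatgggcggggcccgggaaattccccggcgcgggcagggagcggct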

How the data were processed

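RNA of H322c cells with DMSO or gefitinib was hybridized to U133 plus 2.0 arrays. The authors deposited 1 signal intensity per probe set and array, made with MAS5 per the submitters' processing notes (version not given in the sources used here). The 2% trimmed mean was 500.1 on both arrays, which would hide a shift shared by most transcripts. Precision is limited by the 2 arrays. The table held 54675 probe sets. The annotation gave 1 gene to 41097, several to 1801 and none to 11777, and symbols were updated by gene identifier for 41043. Signals were floored at 100, and each gene took the log2 ratio (gefitinib over DMSO) of its brightest probe set by mean log2 signal. No p-value was computed.

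The members and all gene lists were chosen with earlier results of these data known. All members are accounted for, and other probe sets are given where one is past 2-fold or informative beside it. Of the 6 further lists the genes past 2-fold are named. TFEB, TFE3, MITF, FOXO1, FOXO3 and the other stress-induced genes were added after their values were seen. The alternatives were centring on the median of 100 control probe sets, scaling to 3 GAPDH or 16 spike-in probe sets, quantile normalization, lowess (span 0.3), floors of 50 and 200, log2 of signal plus 50, other choices of probe set, and thresholds of 1.5-fold and 3-fold. Procedures were tested on simulated data. Computations used Python 3.11.15 with pandas 2.3.3 and numpy 2.4.6, lowess came from statsmodels 0.14.6, and matplotlib 3.10.9 drew the plots.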

Additional observations from a re-analysis of the deposited data

How the results depend on the processing

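The 2 higher autophagy genes became 4 after centring on control probe sets, 7 with scaling to GAPDH, and 1 with scaling to spike-ins, quantile normalization, lowess correction or a floor of 200. The share of all genes that were higher moved the same way, from 13.3% to 17.0%, 19.2%, 9.0%, 10.7%, 10.7% and 11.3% in that order. The 2 lower genes became 1 with GAPDH (3.91% of all genes), and 3 with spike-ins (9.65%) or, by adding VMP1, with a floor of 50 (6.32%). Choosing each gene's probe set by its maximum over the arrays gave 3 higher (6.82%, against 13.8% of all genes) by adding STX17. With a threshold of 1.5-fold 9 were higher (20.5%, against 26.4% of all genes) and 5 lower (11.4%, against 15.0%), and with 3-fold 0 were higher and 0 lower, against 4.78% and 2.05%. The median log2 ratio of 0.07 became 0.21 with control probe sets, 0.29 with GAPDH, -0.15 with spike-ins and 0.14 with the mean over probe sets. Of 481 values of single genes under the alternatives, 8 moved by more than the SD of 0.50 between probe sets, and none of the 4 genes past 2-fold changed sign. Many of these values could not have moved that far, so the count is no measure of robustness. Rescaling to control probe sets, GAPDH or spike-ins removes a constant of -0.14, -0.22 or 0.21, smaller in size than this SD. Genes with a single measured probe set cannot change with the mean or maximum over probe sets. Leaving out probe sets ending in _x_at removed MAP1LC3A, and a floor of 200 removed VMP1 and MAP1LC3A. Signal over background limits VMP1, MAP1LC3A and ATG16L2 most.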

Other observations

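Of the 3 probe sets annotated to both VMP1 and the microRNA gene MIR21, which were assigned to neither gene, the brightest measured 4415.7 in the vehicle culture and 3162.5 after gefitinib, 1.40-fold lower. The next measured 2233.4 and 560.3, 3.99-fold lower, and the dimmest stayed under the floor in both cultures. The probe set shared by GABARAPL1 and GABARAPL3 had 3491.5 and 3498.1.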
